A study of Drosophila melanogaster with 38 samples.

Results

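The peaks described here are 237 sites of the male-specific lethal protein MSL2 that lay on the autosomes of Drosophila melanogaster at divergent promoters, where 2 protein-coding genes start on opposite strands close to each other. They were taken from a deposited list of 1685 autosomal MSL2 peaks, of which 1669 lay on the arms of chromosomes 2 and 3 and on chromosome 4. A peak was a member when its midpoint was within 500 bp of annotated transcription start sites (TSSs) of at least 2 protein-coding genes, with 1 or more on each strand. Of the 1060 autosomal peaks at any protein-coding promoter the members made up 22.4%, while 823 were near TSSs of one strand only (one-strand promoter peaks) and 609 were at no protein-coding promoter. The 3 deposited lists of the series held 2524 distinct intervals in all.

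The series holds 38 libraries of larvae of the third instar with the sexes kept apart, 19 of females and 19 of males, and 1 library per group. Of these, 12 are inputs and the others are chromatin immunoprecipitations. The titles of some histone libraries and their inputs, in both sexes, name msl2het or msl2null larvae. MSL2 itself was pulled down in 2 libraries, 1 male and 1 female, through a FLAG tag on a UAS-msl-2::3Flag transgene driven by tub-Gal4 in larvae of the genotype msl-2227/msl-2km, which were set beside untagged msl-2227/km / CyO-GFP larvae. The tubulin promoter drives this Gal4 broadly, so the tagged protein was not made from the promoter of msl-2. The dissected front part of the larvae holds many tissues. The peak lists name no library. For them the sources used here give no sex, genotype, control or calling threshold. The lists hold positions and no usable score, the depth is unknown, and no replicate error can be given. All tests below therefore count each peak or each promoter as independent and describe where the listed peaks lie, not variation between animals.

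MSL2 is the subunit of the fly dosage compensation complex that is made in males. The complex spreads over the male X chromosome from high-affinity sites (HAS) and raises transcription of X-linked genes. Its strongest sites carry GA-rich repeats, which are also bound by the zinc finger protein CLAMP. MSL2 has also been found at autosomal promoters. The lists used here hold 1685 autosomal peaks, 680 X peaks outside the HAS list and 159 HAS. Divergent promoters in flies mostly serve broadly active genes and often carry the DNA replication-related element (DRE), bound by DREF, or motif 1, bound by M1BP.

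The sequence between the paired TSSs, called the gap, is shown for 8 members because the words described further on can be read in it. The sequences are on the plus strand of build dm6 from the RefSeq genome, 5′ to 3′, so the gene named first starts at the left end and runs to the left and the gene named second starts at the right end and runs to the right. Capitals mark GAGAGAGA or CACACACA with up to 1 mismatch, TATCGATA (the DRE), GGTCACAC (the core of motif 1) and CAGCTG (an E-box), on either strand. The gaps lie outside annotated exons and next to the first exons of both genes.
NTPase and lilli, chr2L:2885851-2885928: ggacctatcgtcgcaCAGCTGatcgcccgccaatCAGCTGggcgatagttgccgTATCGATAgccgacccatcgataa
eIF2gamma/Su(var)3-9 and Set, chr3R:15263459-15263551: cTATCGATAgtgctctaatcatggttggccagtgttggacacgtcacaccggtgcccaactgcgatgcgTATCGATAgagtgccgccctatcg
Rab8 and Usp32, chr3L:19871079-19871138: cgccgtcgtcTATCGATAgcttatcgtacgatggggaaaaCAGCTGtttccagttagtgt
qless and mRpL32, chr3R:31252609-31252871: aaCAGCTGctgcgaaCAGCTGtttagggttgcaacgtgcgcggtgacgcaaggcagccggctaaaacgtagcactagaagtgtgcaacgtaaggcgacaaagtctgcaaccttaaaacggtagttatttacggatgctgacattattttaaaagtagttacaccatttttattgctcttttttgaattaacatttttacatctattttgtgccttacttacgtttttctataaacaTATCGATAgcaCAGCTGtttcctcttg
slmb and CG5793, chr3R:21127486-21127572: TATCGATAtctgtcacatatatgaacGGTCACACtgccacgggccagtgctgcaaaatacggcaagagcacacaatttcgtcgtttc
CG45218 and Tm1, chr3R:15290800-15290943: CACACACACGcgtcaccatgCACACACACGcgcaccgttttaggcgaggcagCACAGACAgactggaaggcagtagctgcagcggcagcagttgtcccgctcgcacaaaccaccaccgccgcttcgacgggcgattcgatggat
D19B and CG43293, chr3L:6184921-6185188: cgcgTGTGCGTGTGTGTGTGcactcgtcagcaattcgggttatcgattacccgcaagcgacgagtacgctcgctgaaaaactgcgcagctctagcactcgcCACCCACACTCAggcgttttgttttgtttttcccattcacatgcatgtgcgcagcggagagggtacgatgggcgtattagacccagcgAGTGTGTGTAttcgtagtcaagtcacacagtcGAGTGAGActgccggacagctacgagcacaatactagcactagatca
DPCoAC and CG5180, chr3R:20557668-20557929: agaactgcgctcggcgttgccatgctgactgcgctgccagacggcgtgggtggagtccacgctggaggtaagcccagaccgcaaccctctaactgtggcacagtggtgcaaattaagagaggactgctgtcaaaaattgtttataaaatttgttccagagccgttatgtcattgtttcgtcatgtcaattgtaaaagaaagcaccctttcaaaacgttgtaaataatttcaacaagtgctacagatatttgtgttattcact

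The first 4 gaps carry the DRE. They stand for promoters of lilli (a transcription elongation factor of the AF4 family), Set (a histone chaperone), Rab8 (a small GTPase of membrane traffic) and mRpL32 (a mitochondrial ribosomal protein), and all but that of Set also carry the E-box. The gap of slmb, which encodes an F-box protein of a ubiquitin ligase, starts with the DRE and holds the motif 1 core, but its peak of 349 bp ended to the left of the gap, inside slmb. The DRE in the gap of qless and mRpL32 likewise lies outside its peak, and neither of these copies is within the 500 bp around the midpoint that were searched in the comparisons. The gap of Tm1 (tropomyosin) carries CA repeats, and that of D19B carries CA repeats and a GA word. This GA word lies to the right of the D19B peak, outside it, but within the 500 bp that were searched. The gap of DPCoAC, a mitochondrial carrier, holds none of the marked words although its peak was 867 bp wide. The gaps of NTPase, slmb, CG45218 and DPCoAC came from the rule for named members, while the other 4 were chosen after their words were seen.

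A total of 490 protein-coding genes started within 500 bp of a member. Of the members, 220 had 2 such genes, 16 had 3 and 1 had 4. The member with 4 genes lay between CG31650 on one side and CG33995, CG44000 and CG44001 on the other, and was 841 bp wide. The next by this count were the members of CG15386/CG42371 and mio (234 bp wide), of CG34179/slmo and IPIP (1013 bp) and of Pax and Alp12/CG13085 (321 bp). A head-to-head pair, in which a minus-strand TSS is followed to its right by a plus-strand TSS at most 1000 bp away, was found for 234 members, and the other 3, that of Pax (paxillin) among them, had TSSs of both strands in another order. Of the members with a head-to-head pair, 2 (275 and 330 bp wide) lay at different TSSs of the same genes, CG15861 and CG3770. Genes with several TSSs can form several pairs, and 236 pairs had a member within 500 bp of both TSSs.

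The gap between the paired TSSs was short at members. Its median was 200.5 bp (1 to 593 bp), beside 296 bp over all 2114 autosomal head-to-head pairs, though the rule itself favours short gaps. Of pairs with a gap of up to 200 bp, 119 of 644 carried a member (18.5%, 95% Wilson interval 15.7 to 21.7%). The share was 84 of 757 (11.1%) for gaps of 200 to 400 bp and 33 of 713 (4.63%) for gaps of 400 to 1000 bp. The sequence that is within 500 bp of both TSSs shrinks as the gap grows, and per Mb of that sequence the members numbered 205, 157 and 123. Intervals on shares cover counting error only.

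Members were spread over the 4 large arms, with 44 on 2L, 58 on 2R, 42 on 3L and 93 on 3R, while 0 lay on chromosome 4, where 4 peaks and 12 pairs were listed. On 3R, 94 of 618 pairs carried a member (15.2%), against 142 of 1496 on the other arms and chromosome 4 (9.49%, Fisher's exact test, adjusted p = 0.00101 over 4 arms). No other arm passed this test, which was added after the counts were seen. The pair shares of 2L, 2R and 3L were 8.57%, 11.2% and 8.88%.

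The midpoint of a member was a median of 50 bp from the nearer TSS (0 to 359 bp) and 263 bp from the farther one (18 to 495 bp). It lay in the gap in 107 of 234 members (45.7%), inside the minus-strand gene in 67 and inside the plus-strand gene in 60. The peak interval covered both TSSs in 86 members (36.8%), 1 of them in 113 and neither in 35. The members just inside the 500 bp limit were that of Mitofilin (a subunit of the mitochondrial cristae organizing complex) and mRpL35, whose farther TSS was 495 bp away, and that of CG33635 and spen (a regulator of signalling pathways in development), at 493 bp. Just outside were the peaks of ATPsynCF6 and Sec13 at 502 bp and of Ate1 and Hsl at 507 bp.

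MSL2 peaks were denser where TSSs of both strands were in reach. Sequence within 500 bp of TSSs of both strands held 167 peak midpoints per Mb, against 72.7 per Mb where TSSs of one strand were in reach (2.3-fold, exact 95% interval 1.98 to 2.66, exact conditional test, adjusted p = 4.56e-25). The interval includes 2, and whether the TSSs of each strand add peaks independently was not tested. Two-strand sequence is on average nearer to a TSS, and at a matched distance the ratio was smaller. Within 100 bp of the nearest TSS there were 300.5 against 202.1 midpoints per Mb (1.49-fold, 1.25 to 1.76, exact adjusted p = 1.80e-05). At 100 to 300 bp the ratio was 1.12 (0.782 to 1.57, exact adjusted p = 0.718), and at 300 to 500 bp, with 3 members, it was 1.05 (0.212 to 3.16).

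**Figure D1:**
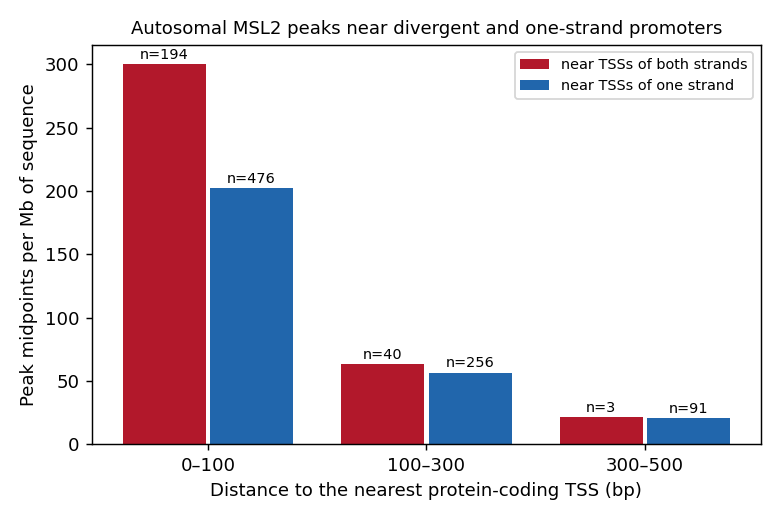
Peak midpoints per Mb of autosomal promoter sequence (vertical axis) by distance to the nearest protein-coding TSS (horizontal axis, bp), for sequence within 500 bp of TSSs of both strands (red) or of one strand (blue), with the number of peaks above each bar. Within 100 bp the red bar stands at 300.5 and the blue at 202.1, and at 100 to 300 bp the ratio is 1.12.

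Inside two-strand sequence, the gap held 200.1 midpoints per Mb and the rest 147.4 (1.36-fold, 1.04 to 1.77, exact adjusted p = 0.0225). Within 100 bp of the nearest TSS the ratio was 1.27 (0.952 to 1.71) and missed the threshold (exact adjusted p = 0.190). It also missed the threshold without 2R (1.30-fold, exact adjusted p = 0.0900) or without 3R (1.18-fold, exact adjusted p = 0.345) and, among peaks at least as wide as the median of the list, the ratio was 0.871 (exact adjusted p = 0.555).

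The midpoint lay nearer to the minus-strand TSS in 120 members and nearer to the plus-strand TSS in 113. When the pairs were oriented by gene length, it lay nearer to the TSS of the longer gene in 146 of 233 members (62.7%, exact interval 56.1 to 68.9%, exact binomial test, p = 1.34e-04). This was noticed after the values were seen. The share was 60.3 to 64.2% when each arm was left out in turn, 66.0% for midpoints in the gap (70 of 106) and 59.8% for those past a TSS (76 of 127). Long genes often have several TSSs, and among pairs in which both genes have 1 TSS position it was 54 of 85 (63.5%, adjusted p = 0.0199 in an exact binomial test). Where the longer gene was at least 3 times as long as the shorter it was 70 of 98 (71.4%). The gene with the nearer TSS had a median length of 3407.5 bp and the other gene 2209 bp.

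**Figure D2:**
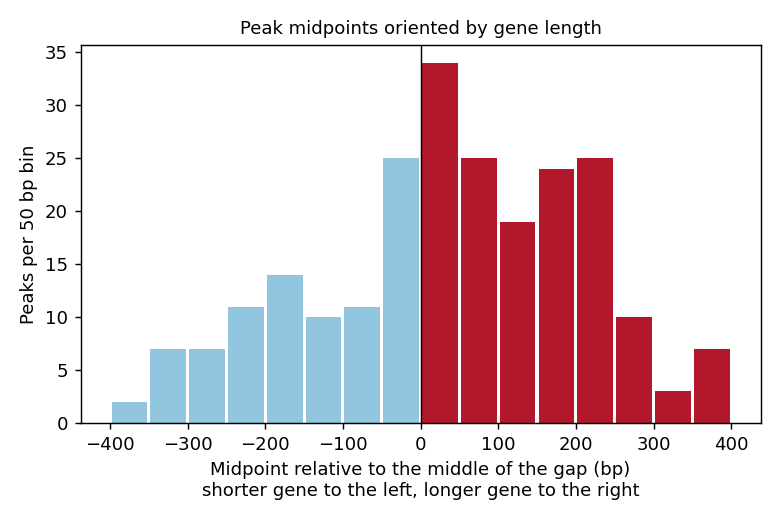
Number of members (vertical axis) by the position of the peak midpoint relative to the middle of the gap (horizontal axis, bp, bins of 50 bp), with each pair turned so that the longer gene lies to the right (red) and the shorter to the left (light blue). The tallest bin, with 34 members, is the first on the side of the longer gene, and 146 of 233 midpoints are nearer to the TSS of the longer gene.

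The peak of Rack1, a ribosome-associated scaffold protein, and mts, the catalytic subunit of protein phosphatase 2A, was the widest member. It measured 1808 bp (chr2L:7826879-7828686), with a gap of 335 bp and its midpoint 132 bp inside mts. The peak of CG8031 and CtBP, a transcriptional corepressor, measured 1274 bp (chr3R:13010991-13012264), with its midpoint in the gap 22 bp from the TSS of CtBP. That of NTPase and lilli measured 1208 bp (chr2L:2885084-2886291). The peak of Mgat2/RpS28a and Axn (Axin, a scaffold of Wnt signalling) was 1006 bp wide, that of CG8414 and Rho1 (a small GTPase of the actin cytoskeleton) 937 bp, that of Cpes (a ceramide phosphoethanolamine synthase) and CG5569 904 bp, and that of CG9839 and hng2 800 bp. With those of IPIP, DPCoAC and CG31650 given above, these are the 10 widest.

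The median width of the 237 members was 222 bp (150 to 1808 bp), against 232 bp for one-strand promoter peaks (150 to 1676 bp). Peaks over 300 bp wide made up 64 of 237 members (27.0%) and 252 of 823 one-strand promoter peaks (30.6%), a difference of -3.62 points that did not pass the test (Fisher's exact test, p = 0.296). The nearest other listed peak was a median of 11973 bp from a member and 11637 bp from a one-strand promoter peak.

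GA repeats were rare at members. The word GAGAGAGA, with up to 1 mismatch and on both strands, was in the 500 bp around the midpoint of 47 of 237 members (19.8%), against 51.2% of the 823 one-strand promoter peaks (Fisher's exact test, adjusted p = 2.31e-17 over 20 word tests). Divergent promoters with no listed peak within 1 kb, read in 1688 windows centred between their TSSs, held it in 18.3% (Fisher's exact test, adjusted p = 0.658). One-strand promoters with no peak, read in 7596 windows centred on the outermost annotated start of each gene, held it in 24.8%. The odds of the word were thus 1.10 times as high with a peak as without at divergent promoters and 3.17 times as high at one-strand promoters, and the ratio of these 2 odds ratios was 0.348 (0.240 to 0.505, Zelen's exact test of equal odds ratios, adjusted p = 7.17e-08 over 10 words, added after seeing the shares). Windows with a peak were centred on its midpoint and the others on gaps or gene starts. These odds ratios, and those of other words below, therefore compare windows that were placed differently. GGAAGGAA, of the same composition, was in 24.9% of members, 23.9% of one-strand promoter peaks, 23.8% of divergent promoters with no peak and 26.8% of one-strand promoters with no peak.

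The longest uninterrupted GA runs at members were 19 bp at LRR and CG30496/Coq9 and 10 bp at SC35 (a splicing factor) and eRF3 (a translation termination factor). The next 4, those of Ifrd1 and CG8814, CG17816 and ArgRS-m (a mitochondrial arginyl-tRNA synthetase), CG45218 and Tm1, and slmb and CG5793, were 8 bp long. The peaks of LRR and SC35 were 150 and 225 bp wide, and none of these 6 was among the 10 widest members.

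CA repeats lay between these levels. CACACACA, with up to 1 mismatch and on both strands, was in 48.9% of members, below the 66.2% of one-strand promoter peaks (adjusted p = 7.09e-06) and above the 31.9% of divergent promoters with no peak (Fisher's exact test, adjusted p = 1.50e-06). It was in 37.9% of one-strand promoters with no peak. The difference from divergent promoters with no peak fell from 17.1 to 9.58 points when member windows were also centred between the TSSs (Fisher's exact test, adjusted p = 0.00861), and missed the threshold at 8.34 points among windows of 40 to 50% GC (adjusted p = 0.155). That from one-strand promoter peaks missed it among peaks at least as wide as the median of the list (-5.21 points, Fisher's exact test, adjusted p = 0.370). Both repeat words were found in 24 members, the GA word alone in 23, the CA word alone in 92 and neither in 98 (41.4%), while neither was found in 152 one-strand promoter peaks (18.5%). The longest CA runs were 18 bp at CG8414 and Rho1 and 15 bp at CG31650, at Cpes and at CG13484 and Frl (a formin of actin assembly). The first 3 of these are among the 10 widest members.

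**Figure D3:**
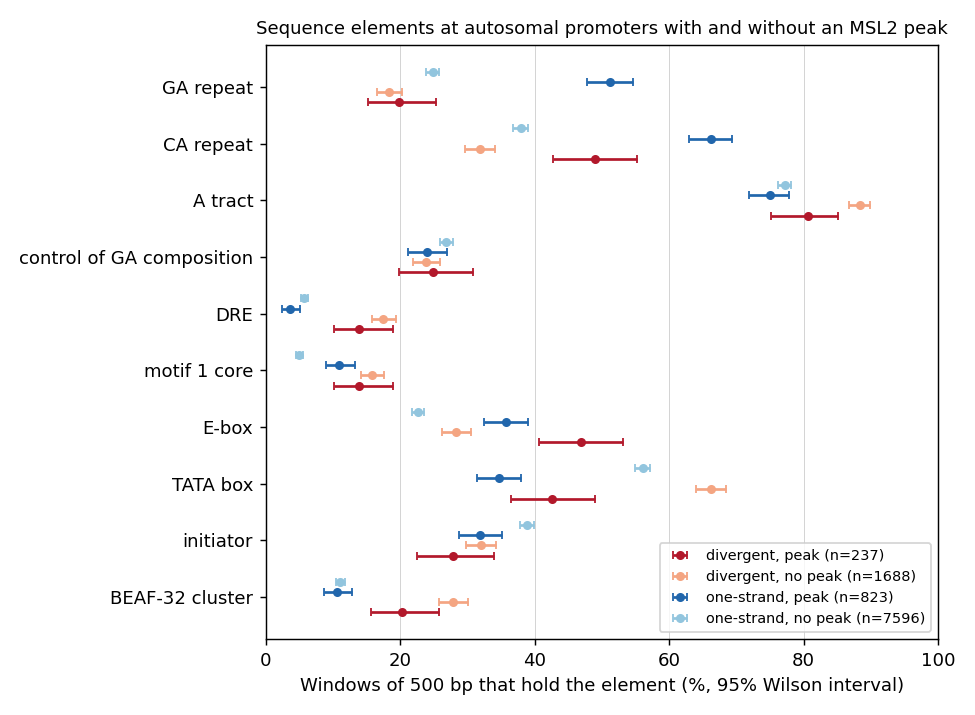
Share of 500 bp windows that hold each element (horizontal axis, %, points with 95% Wilson intervals) for divergent promoters with a peak (the members, red) and with none (orange) and for one-strand promoters with a peak (dark blue) and with none (light blue). The GA repeat is in 19.8% of members and 51.2% of one-strand promoter peaks, and the E-box is in 46.8% of members and 28.3% of divergent promoters with no peak.

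The DRE was more frequent at members than at one-strand promoter peaks. The word, TATCGATA, was in 33 members (13.9%) and in 3.52% of one-strand promoter peaks (adjusted p = 2.09e-07), but divergent promoters with no peak held it in 17.5% (Fisher's exact test, adjusted p = 0.295) and one-strand promoters with no peak in 5.69%. At least 3 copies of CGATA, the site of the insulator protein BEAF-32, which each DRE also contains on both strands, were in 20.3% of members, 10.6% of one-strand promoter peaks (adjusted p = 4.51e-04), 27.8% of divergent promoters with no peak (Fisher's exact test, adjusted p = 0.0303) and 11.1% of one-strand promoters with no peak. The call against divergent promoters with no peak rests on the setting, and the difference was 1.35 points in the other direction in windows of 200 bp (Fisher's exact test, adjusted p = 0.588). The motif 1 core GGTCACAC was in 13.9% of members, 10.9% of one-strand promoter peaks, 15.8% of divergent promoters with no peak and 4.96% of one-strand promoters with no peak. Its odds were 2.35 times as high with a peak as without at one-strand promoters and 0.865 times at divergent promoters (Zelen's exact test, adjusted p = 6.28e-05).

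The E-box CAGCTG was more frequent at members than at one-strand promoter peaks and at divergent promoters with no peak. It was in 111 of 237 members (46.8%), in 35.7% of one-strand promoter peaks (adjusted p = 0.00527), in 28.3% of divergent promoters with no peak (Fisher's exact test, adjusted p = 1.30e-07) and in 22.6% of one-strand promoters with no peak. The difference from divergent promoters with no peak was 18.5 points, and 14.6 points among windows of 40 to 50% GC (Fisher's exact test, adjusted p = 0.00395). That from one-strand promoter peaks missed the threshold without 2R (9.07 points, Fisher's exact test, adjusted p = 0.0729) and at a TSS radius of 1000 bp (6.21 points, adjusted p = 0.0583). The odds of the word were 2.23 times as high with a peak as without at divergent promoters and 1.90 times as high at one-strand promoters, and the difference between these did not pass Zelen's exact test (adjusted p = 0.477). Which protein binds these copies was not measured.

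By distance from the midpoint, the E-box was in 19.4% and 17.7% of members in the 100 bp on either side and in 5.49 to 10.97% in the other bins up to 500 bp. At one-strand promoter peaks it was in 12.5% and 11.7% on either side and in 3.52 to 7.90% in the other bins. The DRE was in 6.75% and 3.80% of members next to the midpoint and in 0.844 to 3.38% in the other bins. At one-strand promoter peaks it was in 1.34% and 0.851% next to the midpoint and in 0.365 to 1.34% in the other bins. The GA word was in 8.02% and 4.64% of members next to the midpoint and in 2.11 to 6.75% in the other bins. One-strand promoter peaks held it in 21.7% and 19.2% next to the midpoint and in 7.29 to 13.1% in the other bins. The plus and minus sides have no biological order here, since genes start on both.

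**Figure D4:**
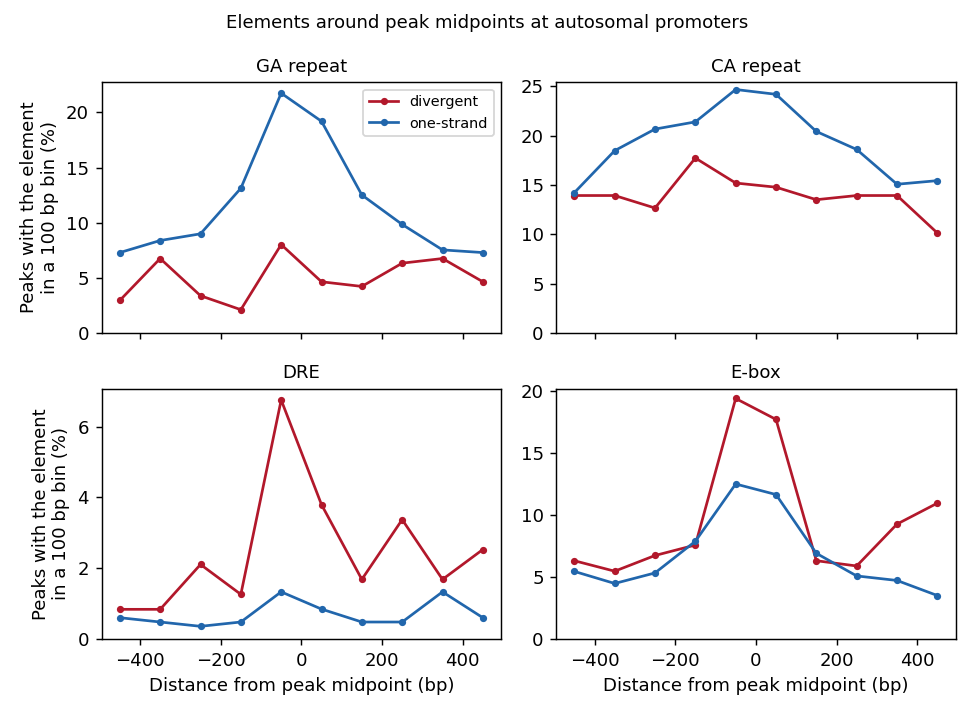
Share of peaks that hold the GA repeat, the CA repeat, the DRE or the E-box (vertical axes, %, each on a scale of its own) in 100 bp bins by distance from the peak midpoint (horizontal axes, bp), for members (red) and one-strand promoter peaks (blue). The E-box stands at 19.4% and 17.7% of members next to the midpoint, and the GA repeat at 21.7% and 19.2% of one-strand promoter peaks but at 8.02% and 4.64% of members.

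TATAAA, which contains the TATA box core, was in 42.6% of members, in 34.6% of one-strand promoter peaks (adjusted p = 0.0480, a call that was lost in 9 other settings and turned direction in 2) and in 66.2% of divergent promoters with no peak (Fisher's exact test, adjusted p = 4.50e-11). It was in 56.1% of one-strand promoters with no peak. AAAAAAAA, with up to 1 mismatch, was in 80.6% of members and in 75%, 88.4% and 77.2% of one-strand promoter peaks, divergent promoters with no peak and one-strand promoters with no peak. The base composition also differed between the groups. The median GC content was 45.0% in member windows and 47.2% at one-strand promoter peaks. It was 36.4% at divergent promoters with no peak and 41% at one-strand promoters with no peak. AAAAAAAA was less frequent at one-strand promoters with no peak than at members, although the former had the lower GC content. Windows of divergent promoters with no peak were centred between the TSSs, and those of members on peak midpoints. With member windows also centred between the TSSs, the TATAAA difference from that group fell from -23.6 to -14.1 points (Fisher's exact test, adjusted p = 1.17e-04). That of AAAAAAAA fell from -7.80 to -2.49 points and missed the threshold (Fisher's exact test, adjusted p = 0.352). Among windows of 40 to 50% GC, of the 5 words that separated members from divergent promoters with no peak, CAGCTG and TATAAA (-12.0 points, Fisher's exact test, adjusted p = 0.0184) still passed. TCAGTT, a form of the initiator, was in 27.8% of members, 31.8% of one-strand promoter peaks, 31.9% of divergent promoters with no peak and 38.8% of one-strand promoters with no peak.

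None of the 10 words passed the test between members whose midpoint lay in the gap and those whose midpoint lay past a TSS (lowest adjusted p = 0.259, for CACACACA at 40.2% and 55.1%, Fisher's exact test). On the X chromosome outside the HAS list, 106 of 438 promoter peaks were at divergent promoters (24.2%), against 22.4% on the autosomes, a difference of -1.84 points (Fisher's exact test, p = 0.457). These X peaks held the GA word in 21.7%, against 19.8% of members (adjusted p = 0.858), and in 43.4% at one-strand promoters of the X (Fisher's exact test, adjusted p = 5.27e-04 for 21.7 against 43.4%). None of the 10 words passed the test between members and X peaks at divergent promoters. These comparisons of words were added after the autosomal shares were seen. Of 159 HAS, 5 were at divergent promoters and 44 at one-strand promoters.

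Among the lists with at least 20 eligible genes, that of the cytosolic ribosomal proteins had the highest share of members. Over all autosomal protein-coding genes, 4347 had an opposite-strand TSS within 1 kb and could therefore carry a member, and 490 of them did (11.3%). The lists were chosen with earlier results known, and they are described by counts with no test. Of 43 eligible cytosolic ribosomal protein genes, which encode subunits of the cytoplasmic ribosome, 16 carried a member (37.2%, Wilson interval 24.4 to 52.1%). Those with no opposite-strand TSS were also above the background for one-strand promoter peaks, with 7 of 29 (24.1%) beside 567 of 7402 over all such genes (7.66%). Among the wider peaks of this list were those of RpS28a (1006 bp), RpL41 (335 bp) and RpL32 (287 bp). Of 21 translation factors 5 carried a member (23.8%, 10.6 to 45.1%), with eIF2gamma at 657 bp and eIF3a at 363 bp the widest, followed by eIF2Bdelta and eIF3h. Of 49 mitochondrial ribosomal protein genes 8 did (16.3%, 8.51 to 29.0%), with mRpL53 (beside AGO1, the microRNA effector) at 452 bp and mRpL2 at 335 bp, then mRpL35 and mRpS11.

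**Figure D5:**
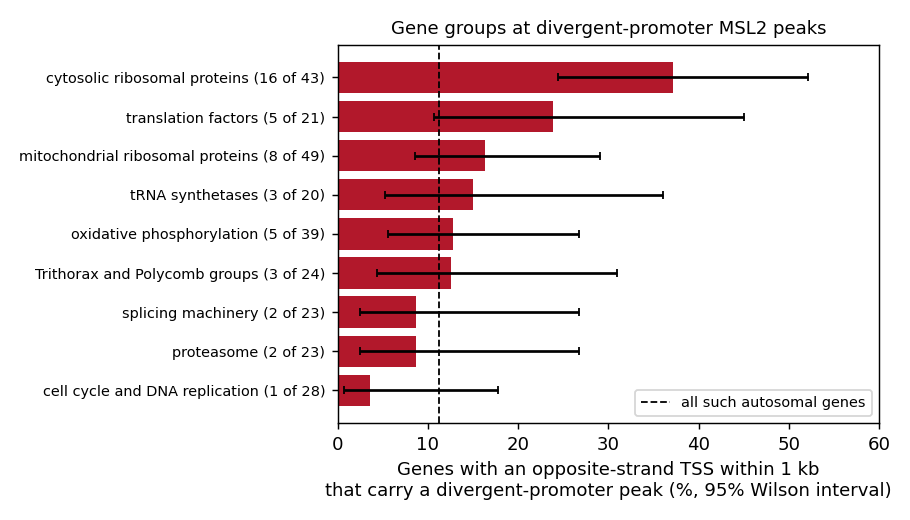
Share of genes with an opposite-strand TSS within 1 kb that carry a member (horizontal axis, %, bars with 95% Wilson intervals) for the lists with at least 20 such genes, with the number of genes beside each name and the share over all such autosomal genes, 11.3%, as the dashed line. The bar of the cytosolic ribosomal proteins, at 37.2%, has an interval that starts above the line, and the intervals of the other lists include it.

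Apart from that of the cytosolic ribosomal proteins, the intervals of all lists with at least 20 eligible genes include the background. Those of the translation factors and the mitochondrial ribosomal proteins are among them. Members were at 5 of 39 genes of oxidative phosphorylation (12.8%, UQCR-C1, cype, SdhC and ATPsyngamma among them), at 3 of 20 tRNA synthetase genes (15.0%, ArgRS-m, AlaRS-m and TyrRS-m), at 2 of 23 proteasome genes (8.70%, Rpn9 and Prosalpha3) and at 2 of 23 genes of the splicing machinery (SmD3, with a peak of 729 bp, and snRNP-U1-C). Of 24 Trithorax and Polycomb group genes 3 carried a member (12.5%), namely ash1 (a histone methyltransferase, 733 bp), ash2 (a subunit of histone methyltransferase complexes, 333 bp) and phol (a DNA-binding Polycomb protein, 159 bp). CycC was at 1 of 28 cell cycle and replication genes (3.57%). Of the ecdysone response genes 3 of 19 were eligible and 1, the nuclear receptor gene Hr39, carried a member. None of 56 homeodomain patterning genes had an opposite-strand TSS within 1 kb, so none could carry a member, while 32 of them (57.1%) had a one-strand promoter peak, beside 7.66% of all genes with no such TSS. Genes known by a CG number were 152 of the 490 genes at members (31.0%), 35.3% of the 3857 eligible genes with no member and 17.9% of the 782 genes with a one-strand promoter peak.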

How the data were processed

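Per the labels, chromatin of the dissected front part of larvae was fixed, cut with MNase, sonicated and precipitated. Tools listed in the submitters' processing notes are MACS2 2.1.1.20160309.0, bedtools and Bowtie2 2.3.0.1, and the listed builds are dm6 and BDGP6. The notes used here give them no role or order. The deposited files used here are 3 peak lists with chromosome, start and end. The deposited score column of the autosomal list held 0 in every row and was not used. Starts were converted to 1-based positions. TSSs came from Ensembl release 115 (BDGP6, annotation 54) and sequence from the RefSeq genome of the same assembly.

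Each peak was placed by its midpoint. Exact conditional binomial tests were used for densities, two-sided Fisher's exact tests for shares and two-sided exact binomial tests for orientation, with Benjamini-Hochberg adjustment within each family and a threshold of 0.05 (Python 3.11.15, scipy 1.17.1, figures with matplotlib 3.10.9). Odds ratios of words were compared by Zelen's exact test. The density and share tests were tested on simulated data. The members, words and gene lists were chosen with earlier results of these data known. Members were named by a rule: the 10 widest, the 6 with the longest GA run and the 4 with the longest CA run, the 4 with the most genes, 2 on each side of the 500 bp limit, and up to 4 genes of each list, widest peak first. One gene named by this rule is not reported here. Its further part, promoters with more than 1 member, found 0 TSS pairs. Of the list symbols, 1 was not matched to the annotation.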

Additional observations from a re-analysis of the deposited data

How the results depend on the processing

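Of 208 tested values recomputed under other settings, 166 kept their direction and their side of the threshold. The density ratio of two-strand to one-strand sequence kept both in each setting. The ratio of the gap to the rest missed the threshold at a TSS radius of 300 bp (1.2), with 1 TSS per gene (1.27), within 100 bp of a TSS (1.27), without 2R (1.30) and without 3R (1.18), and fell below 1 among the wider peaks (0.871). At a radius of 1000 bp the same ratio was 2.13 (exact conditional test, adjusted p = 2.41e-11). It also passed without 2L (1.48), without 3L (1.44) and with genes of every biotype (1.42). The difference in the share of peaks over 300 bp wide was 2.81 points at a radius of 300 bp and -5.63 points, past the threshold, at 1000 bp. Counting any overlap of a peak with the gap extended by 500 bp raised the share of pairs with a peak to 18.5%.

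The number of words that separated members from one-strand promoter peaks was 6 (4 to 6 elsewhere), and from divergent promoters with no peak 5 (4 to 7 elsewhere, and 2 in windows of 40 to 50% GC). TATAAA against one-strand promoter peaks turned to -1.65 points at a radius of 300 bp and -0.868 points in the GC band, and missed the threshold in 9 further settings. GAGAGAGA against divergent promoters with no peak was 10.6 points higher in members, past the threshold, at a radius of 1000 bp, and turned to -0.290 points without 3R, -0.539 with 1 TSS per gene, -1.39 with 0 mismatches, -0.357 in windows centred between the TSSs and -3.73 in the GC band. In that comparison AAAAAAAA turned to 4.33 points in the GC band. It missed the threshold in windows centred between the TSSs (-2.49 points) and with 0 mismatches (-5.42 points). CGATA, in the same comparison, turned to 1.35 points in 200 bp windows and missed the threshold in 9 further settings. Of CACACACA against one-strand promoter peaks, the call was lost among the wider peaks (-5.21 points, Fisher's exact test, adjusted p = 0.370). The other words, not past the threshold, gave 104 values, of which 21 turned direction and 6 passed. The cause of these changes was not tested. The GC band, the windows centred between TSSs and the 100 bp limit were chosen after seeing the data. No paired analysis was possible because the lists name no library. Without scores or depth, a promoter with no listed peak may hold binding below the unknown threshold of the lists.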
